A study of Mus musculus with 36 samples.

Results

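NZO/HlLtJ, an inbred mouse strain known for obesity and diabetes, was compared with CAST/EiJ, a lean wild-derived inbred strain, in the hypothalamus of animals kept on the control diet. The comparison rests on 12 of the 36 libraries of the series, picked by the strain and the diet in the sample titles: 6 NZO/HlLtJ and 6 CAST/EiJ, with 3 females and 3 males of each strain, and the sexes were weighted equally. All of these mice were labelled wild type and received no treatment other than the diet. The control diet held 10% fat with added fiber, it was fed from 6 weeks of age, and the hypothalamus was collected at 15 weeks. The series asks how strain and diet combine in mouse models of type 2 diabetes, and it also holds C57BL/6J libraries and libraries from mice on a high-fat, high-sugar diet. The 6 C57BL/6J control-diet libraries are given below only as levels, and the 12 NZO/HlLtJ and CAST/EiJ libraries on the high-fat, high-sugar diet only beside the control-diet values. The labels do not say whether each library came from its own animal, so the p-values measure the spread between these samples, which may be technical in part.

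The hypothalamus sets food intake, energy use, body temperature and the output of the pituitary gland. In its arcuate nucleus, neurons that make agouti-related peptide and neuropeptide Y promote feeding, and neurons that make pro-opiomelanocortin and CART restrain it. Leptin, insulin and ghrelin from the blood act on these cells. Glia of the same tissue can also switch on interferon-stimulated genes: type I interferon signals through a complex that includes STAT2 and IRF9, which binds a short promoter element and turns on antiviral genes.

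The 12 libraries held 25251560 to 47250454 counts each. Levels are given as CPM, counts scaled to a common effective library size, and a log2 difference is NZO/HlLtJ less CAST/EiJ. The tissue label was checked on 25 hypothalamus markers, all of which were tested. Their summed level was 2747 to 3191 CPM in NZO/HlLtJ and 2882 to 3206 CPM in 5 of the CAST/EiJ libraries. The library CAST/EiJ female 1 stood apart at 4100 CPM. It was also rich in pituitary transcripts: the 12 tested pituitary markers summed to 2728 CPM there, against 329.7 to 613.5 CPM in the other CAST/EiJ libraries and 308.5 to 338.6 CPM in NZO/HlLtJ. Growth hormone (Gh) reached 802 CPM and prolactin (Prl) 1330 CPM in it. Pituitary transcripts were not confined to this library. Among the other CAST/EiJ libraries Gh still reached 115.6 CPM, against at most 0.584 CPM in NZO/HlLtJ. The levels of CAST/EiJ female 1 also fell with transcript length, by 0.20 log2 per doubling of length, and those of CAST/EiJ female 3 fell by 0.087. The other 10 libraries lay between -0.0126 and 0.054. Results are therefore given with all 12 libraries, and for a part of the lists and genes also without CAST/EiJ female 1. In bulk tissue, fewer cells of a type and less RNA per cell cannot be told apart. The only build named in the processing notes is GRCm38, the C57BL/6J reference; the sources used here do not say whether strain sequences were used, and the part that sequence differences between the strains play in any result was not tested.

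Of 20053 genes tested, 8611 differed between the strains (42.9%; edgeR quasi-likelihood test, adjusted p under 0.05). Of these, 4249 were higher in NZO/HlLtJ (21.2% of tested genes) and 4362 were lower (21.8%). Most differences were small: the median size among called genes was 0.485 log2, with quartiles at 0.259 and 1.151. A test against a minimum difference of 1 log2 kept 1198 genes (5.97%), 716 higher (3.57%) and 482 lower (2.4%). All 6 NZO/HlLtJ libraries lay above all 6 CAST/EiJ libraries for 1953 genes (9.74%) and below them for 1819 (9.07%). The median of all tested genes was 0.0007 log2. Without CAST/EiJ female 1, 8353 of 20446 genes were called (40.9%), 4456 higher (21.8%) and 3897 lower (19.1%). The 2 sets shared 7416 genes with the same direction, 86.12% of the first and 88.78% of the second, and no gene was called in opposite directions.

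**Figure D1:**
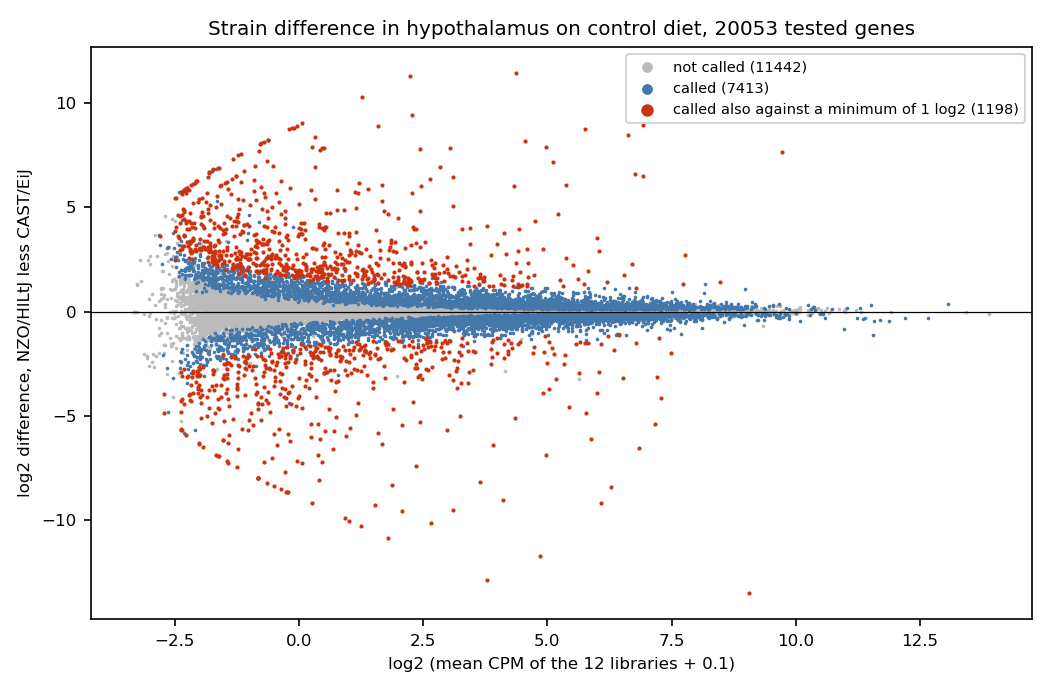
Log2 difference (NZO/HlLtJ less CAST/EiJ, vertical axis) against the log2 mean level in CPM plus 0.1 (horizontal axis) for the 20053 tested genes, each a point. Grey points were not called, blue points were called, and the 1198 red points were also called against a minimum difference of 1 log2; called genes lie on both sides of 0 at every level.

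Gene lists for hypothalamic signalling, cell types and metabolism were read against these shares, 21.2% higher and 21.8% lower. The highest share of members called higher was in the interferon-stimulated genes, followed by reactive gliosis genes and antigen presentation. The highest share called lower was in glyoxalase, carbonyl and aldehyde enzymes, followed by orexigenic peptides. Without CAST/EiJ female 1 the interferon-stimulated and reactive gliosis genes still had the highest shares called higher, with heat shock genes (9 of 18) ahead of antigen presentation (11 of 23). The order of the lower shares changed: thyroid hormone genes came first (9 of 14), then pituitary markers (7 of 12) and glutathione and xenobiotic enzymes (16 of 30).

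**Figure D2:**
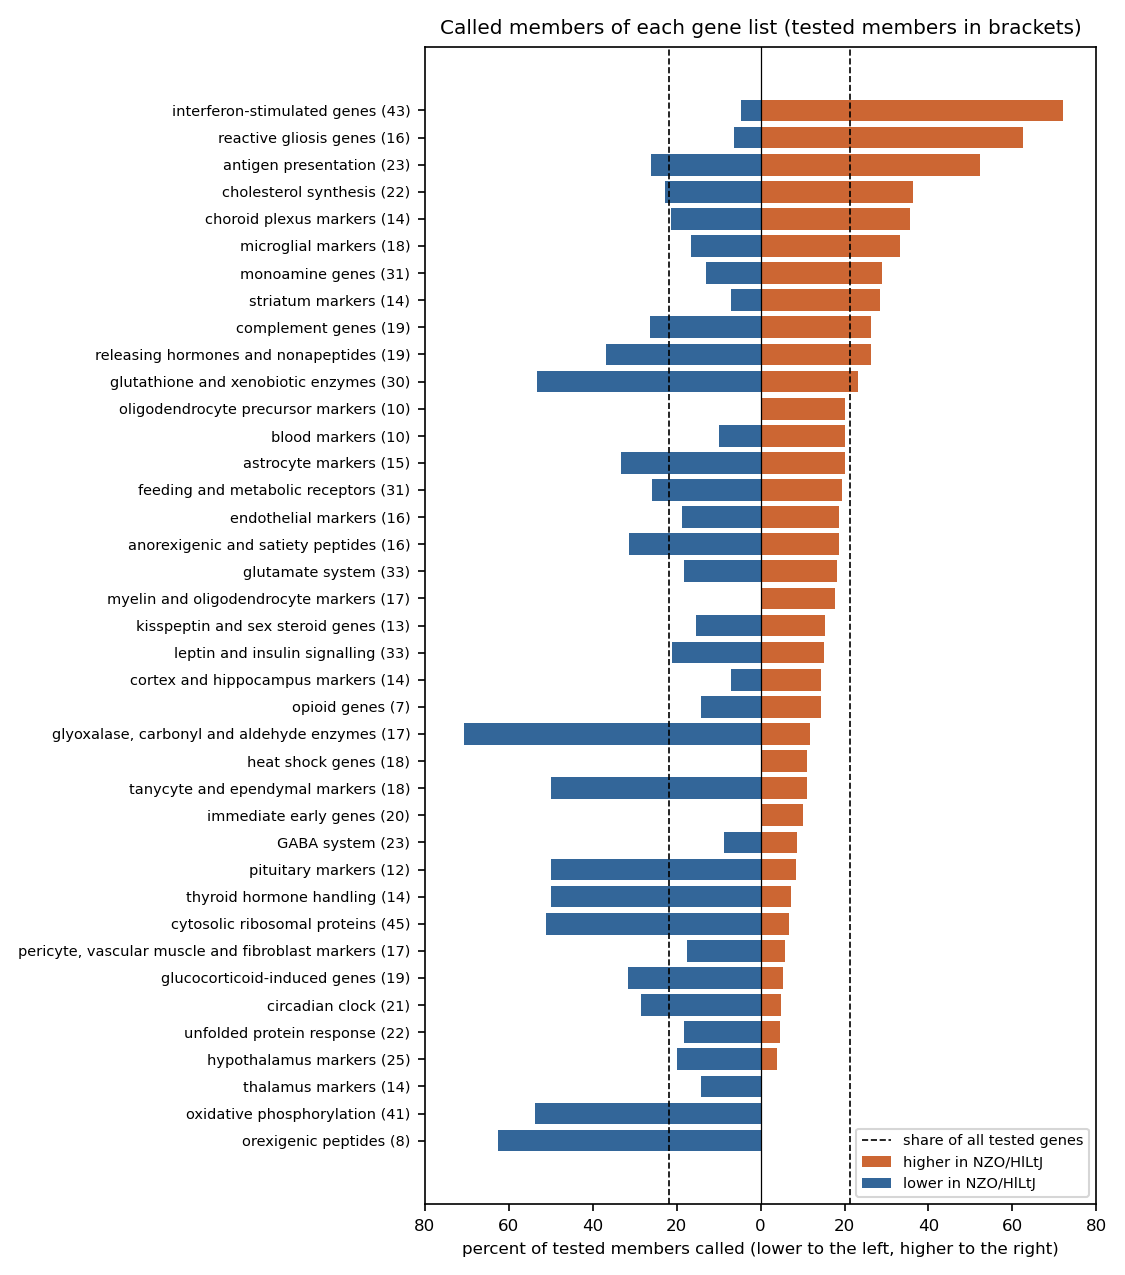
Percent of tested members of each of the 39 gene lists called higher (orange, right) or lower (blue, left) in NZO/HlLtJ, with the number tested in brackets; dashed lines mark the shares of all tested genes, 21.2% higher and 21.8% lower. Interferon-stimulated genes have the longest bar to the right, with 31 of 43 members.

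Interferon-stimulated genes were higher in NZO/HlLtJ. Of 43 members, 31 were higher, 2 were lower and 10 were not called, and the list's median was 0.87 log2 against 0.0007 for all genes. The test against a minimum of 1 log2 kept 12 higher members and 1 lower member, beside 3.57% and 2.4% of all tested genes. For 21 of the 43 members every NZO/HlLtJ library exceeded every CAST/EiJ library, as it did for 9.74% of all tested genes. The summed level of the list was 246.1 to 312.1 CPM in the NZO/HlLtJ libraries and 168.5 to 204.9 in those of CAST/EiJ, so the strains did not overlap. CAST/EiJ female 1 had the highest sum of its strain, and without it 33 members were higher and 2 lower, with a median of 0.88.

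The promoters of list members were searched for the short element that the interferon signalling complex binds. Not every member had a window that was searched, and members without one were not ranked, whatever their p. Among called members with a searched window, 3 had the smallest p with the element before their start, and their promoters are shown. They are the 250 bases before the transcription start in RefSeq (build GRCm38.p6, the C57BL/6J reference sequence), read 5′ to 3′ on the gene's strand. Capitals mark the letters GAAANNGAAA or, on the other strand, TTTCNNTTTC, the core of the interferon-stimulated response element. Ifit3b lies at chr19:34607707-34607956 (+), Irgm1 at chr11:48871421-48871670 (-) and Ifit1 at chr19:34640639-34640888 (+).
Ifit3b: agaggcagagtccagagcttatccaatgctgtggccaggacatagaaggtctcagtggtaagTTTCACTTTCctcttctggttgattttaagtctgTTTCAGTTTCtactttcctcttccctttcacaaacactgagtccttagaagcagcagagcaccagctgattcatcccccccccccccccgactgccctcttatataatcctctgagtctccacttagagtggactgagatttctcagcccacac
Irgm1: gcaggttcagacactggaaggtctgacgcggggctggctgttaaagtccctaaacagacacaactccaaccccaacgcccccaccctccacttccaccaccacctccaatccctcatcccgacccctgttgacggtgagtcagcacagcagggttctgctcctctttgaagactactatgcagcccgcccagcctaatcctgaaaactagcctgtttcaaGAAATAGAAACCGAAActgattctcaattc
Ifit1: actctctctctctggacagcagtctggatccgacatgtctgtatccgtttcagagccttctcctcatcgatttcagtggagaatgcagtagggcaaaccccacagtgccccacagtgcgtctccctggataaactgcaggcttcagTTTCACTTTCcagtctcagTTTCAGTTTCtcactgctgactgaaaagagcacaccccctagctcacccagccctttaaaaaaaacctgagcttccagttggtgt
Each of the 3 windows held 2 matches, and those of Irgm1 overlapped. Of the 43 genes in the list, 27 had a promoter window that was searched, from 250 bases before to 50 after the start. The element was found on either strand in 19 of these 27 (70.4%), in 16 of the 23 called higher in NZO/HlLtJ (69.6%), and in 3.7% of 13010 tested genes with a window. Among all 32851 windows searched, 3.44% held it. A match describes these letters in the reference sequence and is not evidence of binding.

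Ifit3b, a member of the IFIT family that binds foreign RNA, ranged over 8.01, 8.62 and 12.3 CPM (lowest, median and highest) in NZO/HlLtJ and 0.862, 1.1 and 1.39 CPM in CAST/EiJ. The groups did not overlap, and the difference was 3.11 ± 0.15 log2 (SE, n = 6 and 6, adjusted p 1.0e-16). Its counts were not whole in any of the 12 libraries, which can arise where reads are divided among similar genes. Oasl2, a relative of the oligoadenylate synthetases that sense double-stranded RNA, was at 8.33, 10.4 and 12.4 CPM in the NZO/HlLtJ libraries and 0.642, 0.829 and 1.66 in those of CAST/EiJ. All NZO/HlLtJ libraries were again above all CAST/EiJ libraries, by 3.34 ± 0.17 log2 (adjusted p 2.6e-16), and its counts were whole throughout. C57BL/6J lay between 6.82 and 10.7 CPM.

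Members were named from both the signalling and the effector side of the response. Irf7, the factor that amplifies type I interferon production, was 2.56 to 4.14 CPM in the NZO/HlLtJ libraries and 0.214 to 0.795 in those of CAST/EiJ (2.45 ± 0.21 log2, adjusted p 5.2e-11). Irf9 and Stat2, parts of the signalling complex, were higher by 0.69 and 0.46 log2 with no overlap. The GTPase Irgm1, which acts against intracellular pathogens, was 10.1 to 14 CPM in the NZO/HlLtJ libraries and 4.29 to 7.79 in those of CAST/EiJ (1.18 ± 0.10 log2, adjusted p 4.0e-11). Ifit1 was 3.91 to 7.39 against 0.563 to 1.35 CPM, and Trim30a 3.15 to 5 against 0.728 to 1.5 CPM. The ubiquitin-like modifier Isg15 was 0.907 to 1.47 against 0.0616 to 0.42 CPM. Iigp1, another interferon-induced GTPase, was 1.13 to 4.38 CPM in NZO/HlLtJ and at 0 in 5 CAST/EiJ libraries, with 0.084 CPM in the sixth.

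The lower members were Mx2 and Xaf1. Mx2, a gene of the antiviral GTPase family, is typed as a polymorphic pseudogene in the gene annotation used here. It was 0.136, 0.256 and 0.552 CPM in the NZO/HlLtJ libraries and 5.77, 6.35 and 9.18 in those of CAST/EiJ, a difference of -4.65 ± 0.31 log2 (adjusted p 1.3e-13) with no overlap. C57BL/6J was at 0.513 to 1.34 CPM. Xaf1, a pro-apoptotic interferon target, was less far apart, at -0.77 ± 0.14 log2 (adjusted p 4.1e-05), and its groups overlapped. Mx1, a related GTPase, was higher in NZO/HlLtJ, 2.71 to 6.05 CPM against 0.855 to 1.36 CPM, and 0.0423 to 0.513 CPM in C57BL/6J. In the libraries of the high-fat, high-sugar diet, 35 members of the list were higher and 1 lower, with a median of 1.24. Of all tested genes, 22.1% were higher and 21% lower in those libraries. Microglial markers, given further on, were measured beside this list, and their part in it was not tested.

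**Figure D3:**
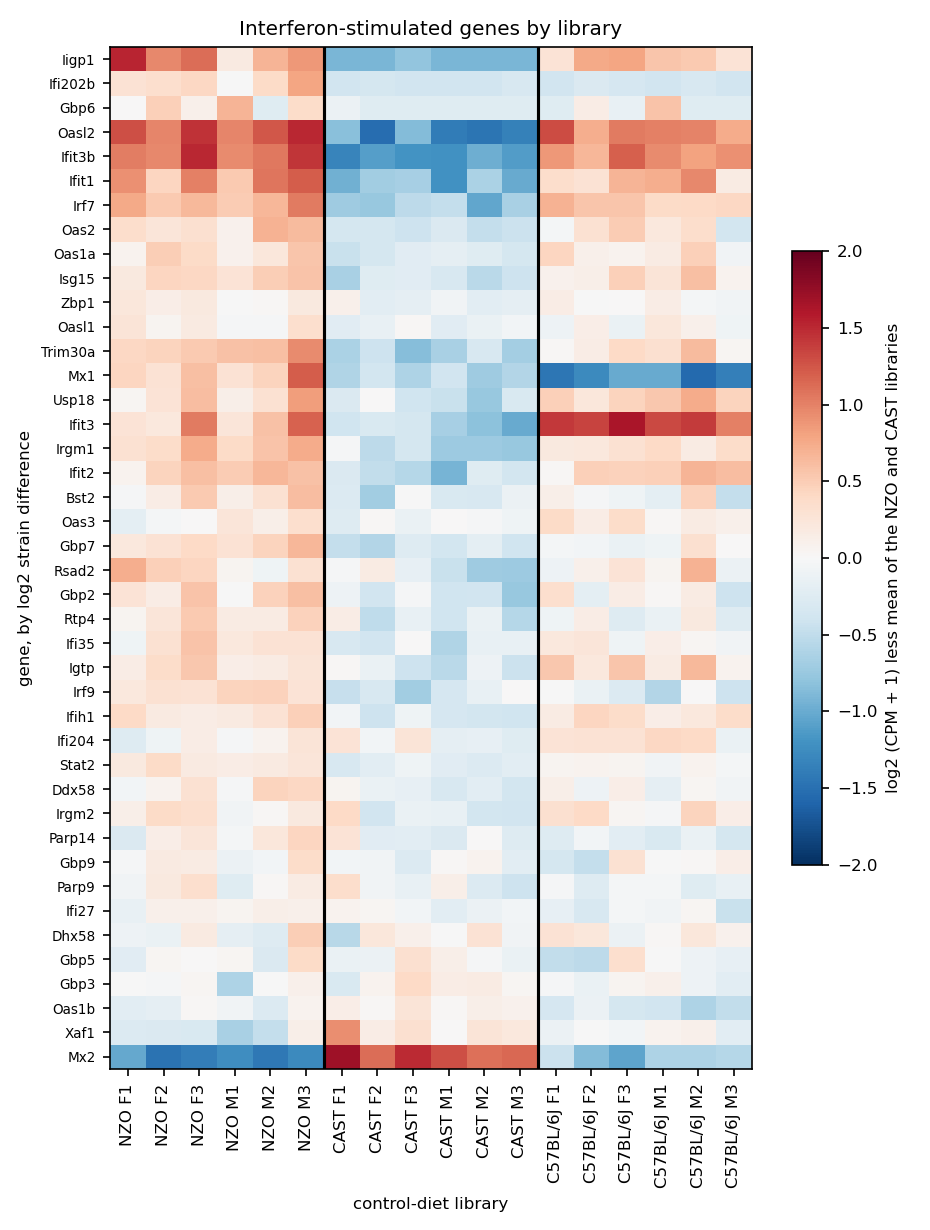
Level of 42 of the 43 interferon-stimulated genes (rows, ordered by fitted log2 difference) in the 18 control-diet libraries (columns; F and M are female and male), as log2 of CPM plus 1 less the gene's mean over the NZO/HlLtJ and CAST/EiJ libraries. Most rows are red in NZO/HlLtJ and blue in CAST/EiJ, Mx2 at the bottom is reversed, and C57BL/6J is lowest for Mx1.

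Antigen presentation genes differed in both directions. Of 23 tested, 12 were higher and 6 lower in NZO/HlLtJ (median 0.59), and 11 and 5 without CAST/EiJ female 1. H2-D1, a classical MHC class I heavy chain (chr17:35262730-35267499), was 45, 53.6 and 62.6 CPM in the NZO/HlLtJ libraries and 4.71, 6.22 and 9.6 in those of CAST/EiJ. The groups were far apart, 2.98 ± 0.10 log2 (adjusted p 1.9e-20), though this family is polymorphic and its counts were not whole in 11 of 12 libraries. Nlrc5, the activator of class I genes, was 2.8 to 4.32 CPM against 0.748 to 1.2 CPM (2.00 ± 0.18 log2, adjusted p 1.1e-10) with whole counts. The immunoproteasome subunit Psmb8 was 4.1 to 5.32 CPM against 1.31 to 2.74 CPM (1.28 ± 0.13 log2, adjusted p 3.1e-09). Lower members included the class II chain H2-Ab1, 0.591 to 2.49 CPM against 3.01 to 11.1 CPM, although Ciita, the activator of class II genes, was higher at 0.677 to 1.19 against 0.161 to 0.53 CPM.

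Complement and gliosis genes followed. Complement components had 5 of 19 higher and 5 lower, or 52.63% called beside 42.9% of all genes. Without CAST/EiJ female 1, 7 were higher and 6 lower, where 40.9% of all genes were called. C4b, which joins C2 in the classical pathway, was 233, 290 and 406 CPM in the NZO/HlLtJ libraries and 91.1, 112 and 181 in those of CAST/EiJ (1.34 ± 0.09 log2, adjusted p 4.6e-13), with no overlap and counts not whole in all 12 libraries. C3, the central component, went the other way: 6.9, 8.79 and 12.5 CPM against 28.7, 38.9 and 143 CPM (-2.48 ± 0.24 log2, adjusted p 4.9e-10). The highest C3 value was CAST/EiJ female 1, and without it the difference was -1.97 log2 (adjusted p 3.8e-13). Of 16 tested reactive gliosis genes, 10 were higher and 1 lower, with a median of 0.69, and 9 and 0 without CAST/EiJ female 1. The list shares C4b, Psmb8 and Gbp2 with the lists above. Among its other members, the asparaginase Aspg was 6.9 to 13.9 CPM against 1.19 to 3.2 CPM (2.23 ± 0.18 log2, adjusted p 2.0e-11), and the oncostatin M receptor Osmr 5.8 to 14 CPM against 2.29 to 4.63 CPM (1.33 ± 0.17 log2, adjusted p 1.1e-07). Gfap, the intermediate filament of astrocytes, was 525, 649 and 940 CPM in the NZO/HlLtJ libraries and 194, 268 and 743 in those of CAST/EiJ. Only CAST/EiJ female 1 overlapped NZO/HlLtJ in Gfap, and leaving it out moved the difference from 1.06 ± 0.18 to 1.42 log2.

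Microglial and astrocyte markers did not move as blocks. Of 18 microglial markers, 6 were higher and 3 lower, or 50% called beside 42.9% of all genes. Without CAST/EiJ female 1, 7 were higher and 3 lower. Their summed level was 348.5 to 418.1 CPM in NZO/HlLtJ and 319 to 398.8 CPM in the CAST/EiJ libraries other than female 1, which was at 497.9 CPM. P2ry12 (16.7 to 23.9 CPM against 15.1 to 23.5 CPM) and Tmem119 (11.7 to 15.6 against 10.3 to 22 CPM), both homeostatic markers, were not called. Fcrls, an Fc-receptor-like protein of microglia, had the smallest p of the list: 0.677, 1.27 and 1.72 CPM in NZO/HlLtJ against 14.3, 15.2 and 24.3 CPM in CAST/EiJ (-3.68 ± 0.15 log2, adjusted p 8.9e-19). C57BL/6J, at 9.83 to 14.2 CPM, sat near CAST/EiJ for this gene. Itgam, the integrin chain CD11b, was higher at 16.2 to 23.2 against 9.07 to 10.7 CPM (1.01 ± 0.07 log2, adjusted p 1.6e-12). Of 15 astrocyte markers, 3 were higher and 5 lower, and 6 and 4 without CAST/EiJ female 1, which had the highest summed level of its strain, 8442 CPM against at most 7527. The share called was 53.33% with all 12 libraries, beside 42.9% of all genes. The folate enzyme Aldh1l1 was 61.4 to 68.7 CPM against 38.5 to 54 CPM, and the gap junction protein Gjb6 was lower (-0.55 log2).

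Peptides that promote feeding were lower in NZO/HlLtJ where they differed. Of 8 tested, 5 were lower and 0 higher, with a median of -0.61; without CAST/EiJ female 1, 4 were lower and the median was -0.49. Npy, made with agouti-related peptide in arcuate neurons, was 8.06, 14.6 and 22.1 CPM in the NZO/HlLtJ libraries and 20.9, 28.5 and 80.1 in those of CAST/EiJ. Its highest value was CAST/EiJ female 1, and the ranges overlapped slightly, since the lowest CAST/EiJ library was below the highest of NZO/HlLtJ. The difference was -1.30 ± 0.22 log2 (adjusted p 1.8e-05), or 2.46-fold higher in CAST/EiJ, and -0.96 log2 without that library (adjusted p 9.7e-05).

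Agrp, the melanocortin receptor antagonist, was 2.01, 3.17 and 5.38 CPM against 4.34, 8.05 and 16.8 CPM, with overlap (-1.42 ± 0.27 log2, adjusted p 9.0e-05; -1.15 log2 and 0.00069 without CAST/EiJ female 1). Hcrt, the orexin precursor of the lateral hypothalamus, was 37.4, 52.7 and 63.4 CPM against 62.1, 99.9 and 235 CPM (-1.09 ± 0.27 log2, adjusted p 0.0017; -0.88 log2 and 0.010 without that library). Apln, which encodes apelin, did not overlap at 15.6 to 18.4 against 27 to 39 CPM (-0.84 ± 0.09 log2, adjusted p 2.4e-09). Galanin (Gal) was lower (-0.39 log2), and this call was lost without CAST/EiJ female 1 (-0.23 log2, adjusted p 0.12). In the high-fat, high-sugar libraries the difference in Npy was 0.10 log2 (adjusted p 0.75) and in Agrp -0.29 log2 (adjusted p 0.42), while Hcrt was at -1.52 log2 (adjusted p 4.6e-05). Whether the strain difference itself changed with diet was not tested here.

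Peptides that restrain feeding had 3 of 16 higher and 5 lower, or 50% called beside 42.9% of all genes. Cartpt, the CART precursor, was 58.2, 62.5 and 65.8 CPM in the NZO/HlLtJ libraries and 37.8, 43.6 and 70.7 in those of CAST/EiJ, where female 1 was the highest. Its difference was 0.38 ± 0.11 log2 (adjusted p 0.0086), and 0.56 log2 without that library (adjusted p 1.3e-05). Pomc, the melanocortin precursor, was 31.1 to 54.4 CPM against 35.2 to 91.6 CPM and was not called (-0.22 log2, adjusted p 0.33). Nms, a neuropeptide of the suprachiasmatic nucleus, did not overlap at 0.244 to 1.51 against 1.88 to 8.29 CPM (-1.58 ± 0.36 log2, adjusted p 0.00059). The growth factor Bdnf was lower at 18 to 23.9 against 25.1 to 32.6 CPM.

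Of 31 receptors for feeding and metabolic signals, 6 were higher and 8 lower, or 45.16% called beside 42.9% of all genes. The ghrelin receptor Ghsr was 6.83, 7.16 and 8.28 CPM in the NZO/HlLtJ libraries and 9.07, 16.2 and 21.2 in those of CAST/EiJ (-1.09 ± 0.17 log2, adjusted p 3.0e-06), with no overlap. The melanin-concentrating hormone receptor Mchr1 was lower (-0.51 log2), as was the adiponectin receptor Adipor1 (-0.34 log2), both without overlap. The galanin receptor Galr1 was higher, 10.8 to 13.3 against 4.22 to 8.97 CPM (0.78 ± 0.13 log2, adjusted p 1.2e-05), and the insulin receptor Insr by 0.35 log2. The leptin receptor Lepr was 9.52 to 12.6 CPM against 8.81 to 17.8 CPM and was not called (-0.30 log2, adjusted p 0.16).

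Of 33 genes of leptin and insulin signalling, 5 were higher and 7 lower, below the shares of all genes in each direction. Without CAST/EiJ female 1 these counts were 6 and 6. With all 12 libraries the higher ones included Stat3, the transcription factor activated by the leptin receptor, and the feedback inhibitors Socs1, Socs2 and Socs3. Stat3 was 113, 126 and 140 CPM in the NZO/HlLtJ libraries and 82.8, 90.3 and 96.3 in those of CAST/EiJ (0.49 ± 0.05 log2, adjusted p 2.0e-10), with no overlap. Socs3 was 3.9, 7.49 and 8.23 CPM against 2.25, 3.49 and 3.91 CPM (1.06 ± 0.16 log2, adjusted p 2.7e-06), and only its lowest NZO/HlLtJ library reached the CAST/EiJ range. Socs2 was higher by 0.89 log2 and Socs1, at 1.17 to 1.5 against 0.339 to 0.91 CPM, by 1.10 log2, both without overlap. The transcription factor Foxo1, which insulin restrains, was lower at 33.4 to 40 against 43.4 to 64.7 CPM (-0.45 ± 0.07 log2, adjusted p 1.8e-06).

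**Figure D4:**
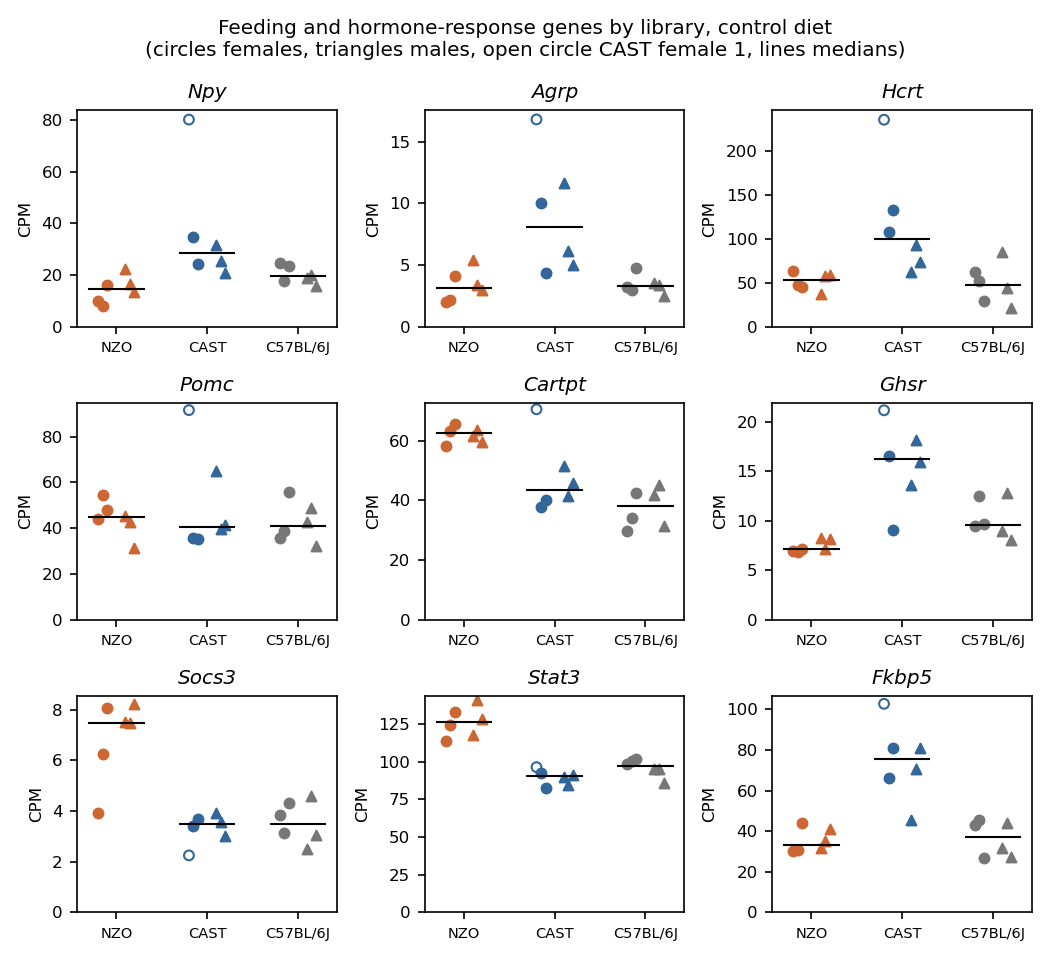
Level in CPM of 9 feeding and hormone-response genes in each control-diet library of NZO/HlLtJ, CAST/EiJ and C57BL/6J; circles are females, triangles males, lines group medians, and the open circle is CAST/EiJ female 1. That library is the highest of its strain for Npy, Agrp, Hcrt, Pomc, Cartpt, Ghsr, Stat3 and Fkbp5, and NZO/HlLtJ does not overlap CAST/EiJ for Ghsr, Stat3 and Fkbp5.

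Of 19 releasing hormone and nonapeptide genes, 5 were higher and 7 lower, and 5 and 3 without CAST/EiJ female 1. The share called was 63.16% with all 12 libraries, beside 42.9% of all genes. The oxytocin receptor Oxtr was higher by 0.52 ± 0.08 log2 (adjusted p 9.0e-06). Avp, the vasopressin precursor, was 33.4, 96.3 and 140 CPM in the NZO/HlLtJ libraries and 89.9, 150 and 292 in those of CAST/EiJ, again highest in female 1 (-0.89 ± 0.21 log2, adjusted p 0.00082; -0.64 log2 and 0.0077 without it). Its counts were not whole in 10 of the 12 libraries. The granin Scg2 was 877 to 1002 CPM against 1043 to 1844 CPM (-0.44 ± 0.09 log2, adjusted p 8.7e-05). The dynorphin precursor Pdyn was lower at 54.5 to 59.8 against 61.6 to 85.8 CPM.

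Thyroid hormone genes were mostly lower where called: 1 of 14 was higher and 7 were lower, with a median of -0.28. That is 57.14% called, beside 42.9% of all genes. Leaving out CAST/EiJ female 1 gave 2 higher and 9 lower at the same median. Hr and Klf9, both known to be induced by thyroid hormone, differed by -0.80 ± 0.13 log2 (adjusted p 1.2e-05) and -0.59 ± 0.11 log2 (adjusted p 9.2e-05) with no overlap. Hr was 32.6, 41.7 and 47.4 CPM in the NZO/HlLtJ libraries and 62.5, 69.6 and 83.8 in those of CAST/EiJ. Trhr, the receptor for thyrotropin-releasing hormone, was the higher one, 14.1 to 21.7 CPM against 9.24 to 12 CPM (0.78 ± 0.10 log2, adjusted p 1.7e-07).

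Among 19 genes known to be induced by glucocorticoids, 1 was higher and 6 were lower (median -0.27), and 2 and 5 without CAST/EiJ female 1. The share called was 36.84% with all 12 libraries, beside 42.9% of all genes. Fkbp5, a chaperone of the glucocorticoid receptor, was 30.4, 33.4 and 44 CPM in the NZO/HlLtJ libraries and 45.7, 75.8 and 103 in those of CAST/EiJ (-1.06 ± 0.15 log2, adjusted p 1.2e-06), and the strains did not overlap. The metallothioneins Mt2 and Mt1 were at -1.02 and -0.51 log2, with CAST/EiJ female 1 highest for both, and at -0.79 and -0.32 log2 without it. In the high-fat, high-sugar libraries Fkbp5 was at -0.83 log2 (adjusted p 4.6e-05) and Mt2 at -0.12 log2 (adjusted p 0.51). Mt1 was higher in NZO/HlLtJ on that diet, by 0.27 log2 (adjusted p 0.048).

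Clock genes had 1 of 21 higher and 6 lower, or 33.33% called. This and the other lists of this paragraph had shares called below the 42.9% of all genes. Nr1d1, the repressor REV-ERB alpha, was 55.2 to 92.3 CPM against 83.7 to 133 CPM (-0.59 ± 0.10 log2, adjusted p 2.6e-05), with counts not whole in all 12 libraries. Of 31 monoamine genes, 9 were higher and 4 lower (41.94% called). The dopamine receptor Drd5 was 1.5 to 2.64 CPM against 4.21 to 6.86 CPM (-1.25 ± 0.14 log2, adjusted p 1.4e-08), with counts not whole in 10 of the 12 libraries. The serotonin-gated channel subunit Htr3a was lower at 0.126 to 0.715 against 1.07 to 2.53 CPM, and the adrenergic receptor Adra2a was higher at 39.3 to 49.1 against 28.3 to 32.2 CPM. GABA genes had 2 of 23 higher and 2 lower (17.39% called), and glutamate genes 6 of 33 each way (36.36% called). With CAST/EiJ female 1 left out these were 1 higher and 3 lower for GABA, and 3 higher and 7 lower for glutamate. Immediate early genes had 2 of 20 higher and 0 lower (10% called), and heat shock genes 2 of 18 higher and 0 lower (11.11%). Unfolded protein response genes had 1 of 22 higher and 4 lower (22.73%). Without CAST/EiJ female 1, 9 heat shock genes were higher, whereas in the high-fat, high-sugar libraries 1 was higher and 9 were lower. In the latter, 22.1% of all tested genes were higher and 21% lower.

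Glutathione and xenobiotic enzymes had 7 of 30 members higher and 16 lower, or 76.67% called beside 42.9% of all genes. Gstm6, a mu-class glutathione transferase, was 5.52, 6.53 and 6.92 CPM in the NZO/HlLtJ libraries and 19.7, 21.7 and 26.7 in those of CAST/EiJ (-1.80 ± 0.08 log2, adjusted p 2.5e-17). Gstm7 was 48.3 to 58.3 against 103 to 128 CPM, and Gstp2, whose counts were not whole in any library, 0.749 to 1.3 against 6.95 to 16.2 CPM. Cyp2d22, a cytochrome P450, was 26.3 to 29.1 against 70.5 to 97.7 CPM (-1.52 ± 0.05 log2, adjusted p 3.6e-21). In the other direction, Gsta4, which conjugates the lipid aldehyde 4-hydroxynonenal, was 29.3 to 36.5 CPM against 11.9 to 22.3 CPM (1.22 ± 0.09 log2, adjusted p 9.8e-13). The glutathione transferases have close paralogs. Among the lower genes named here, counts were not whole in all 12 libraries for Gstp2, in 2 for Gstm6, in 1 for Cyp2d22 and in 0 for Gstm7. The part that reads of similar genes play in these differences was not tested.

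Of 17 glyoxalase, carbonyl and aldehyde enzymes, 2 were higher and 12 lower, and 3 and 8 without CAST/EiJ female 1. Glo1, which detoxifies methylglyoxal, was 85.3, 89.5 and 94.9 CPM in the NZO/HlLtJ libraries and 196, 204 and 271 in those of CAST/EiJ (-1.25 ± 0.05 log2, adjusted p 3.0e-19), with C57BL/6J at 94 to 108 CPM. The reductase Dhrs7 was 8.43 to 10.7 against 22.8 to 42.4 CPM. The retinaldehyde dehydrogenase Aldh1a1 was lower at 22 to 36.2 against 38 to 78.6 CPM.

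Cholesterol synthesis genes had 8 of 22 higher and 5 lower, or 59.09% called beside 42.9% of all genes. Pmvk, phosphomevalonate kinase, was 31.9 to 35.4 CPM against 11 to 15.8 CPM (1.33 ± 0.07 log2, adjusted p 2.3e-15) and Hsd17b7 10.1 to 18.8 against 6.76 to 7.73 CPM. Nuclear genes of oxidative phosphorylation were lower by small amounts: 0 of 41 were higher and 22 were lower, with a median of -0.197. CAST/EiJ female 1 was the highest library for this list in its sum, 7339 CPM against 4981 to 6044 CPM in the other CAST/EiJ libraries and 4808 to 5236 CPM in NZO/HlLtJ. Without it 15 were lower and 1 higher, with a median of -0.090. Uqcrc1, a core subunit of complex III, was 142 to 163 against 178 to 235 CPM (-0.41 ± 0.05 log2, adjusted p 1.9e-08) and kept a difference of -0.38 log2 without that library.

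Ribosomal protein genes showed the same dependence on this library, 3 of 45 higher and 23 lower with it, and 5 and 13 without it. The largest differences among these 45 were in genes whose counts were not whole in all 12 libraries: Rpl19 was 21.2 to 39.3 CPM against 212 to 417 CPM, and Rpl27 9.21 to 12.8 against 73.1 to 134 CPM. Outside the list, Rpl17 was lower by 5.41 on the log2 scale, 3.08 to 8.64 against 233 to 433 CPM. Rpl9 was lower at 13.1 to 21.4 against 246 to 415 CPM, while its pseudogene Rpl9-ps6 was higher at 232 to 270 against 0.0493 to 2.16 CPM. All of these genes had counts that were not whole in all 12 libraries, and whether reads were divided differently between similar genes in the 2 strains was not tested. The mitochondrial genome held a similar case: mt-Co2, cytochrome oxidase subunit 2, averaged 1688 CPM in the NZO/HlLtJ libraries and 9.757 in those of CAST/EiJ with counts not whole in all 12 libraries. Of 15 mitochondrial genes tested, 11 were lower in NZO/HlLtJ and mt-Co2 was the 1 that was higher.

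Markers of other cell types in or near the dissected tissue were measured in the same way. Of 18 tanycyte and ependymal markers, 2 were higher and 9 lower, and 4 and 7 without CAST/EiJ female 1, whose sum was 717.5 CPM against 318.8 to 349.8 CPM in the other CAST/EiJ libraries and 282.6 to 324 CPM in NZO/HlLtJ. The chemerin gene Rarres2 was 9.74 to 13.1 against 23.7 to 67.3 CPM, and -1.12 log2 without that library. Its counts were not whole in all 12 libraries. Foxj1, the regulator of motile cilia, was 19.4 to 23 against 25.6 to 73.7 CPM, a difference of -0.80 log2 and of -0.45 log2 without CAST/EiJ female 1. Mia went the other way without overlap, by 1.825 log2, and by 2.425 log2 without that library. The test against a minimum of 1 log2 kept 2 higher members of this list and 1 lower member. Of 12 pituitary markers, 1 was higher and 6 lower, and 1 and 7 without female 1. The gonadotropin subunits Lhb (0.0502 to 0.353 against 1.48 to 29.5 CPM) and Fshb (0.0623 to 0.407 against 1.66 to 27.1 CPM) did not overlap. The highest Fshb value was not that of CAST/EiJ female 1, which was at 23.81 CPM. Among the other CAST/EiJ libraries Lhb reached 11.96 CPM. The part of pituitary tissue in these differences was not tested.

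Vascular, myelin and blood lists had 17.65% to 37.5% of their members called, below the 42.9% of all genes. Endothelial markers had 3 of 16 higher and 3 lower. Ly6c1 was higher at 20.3 to 29 against 6.84 to 12.5 CPM (1.29 ± 0.11 log2, adjusted p 1.1e-10), with counts not whole in all 12 libraries. Slc2a1 (-0.37 log2) and Tie1 (-0.38 log2) were lower. Pericyte, vascular muscle and fibroblast markers had 1 of 17 higher and 3 lower. The pericyte gene Rgs5 was 84.3, 98 and 106 CPM against 16.4, 49.9 and 52.5 CPM (1.12 ± 0.14 log2, adjusted p 1.4e-07), and 0.95 log2 without CAST/EiJ female 1, its lowest library. The lower members were Abcc9 (-0.55 log2), Col3a1 (-0.79 log2) and Col1a1 (-0.58 log2). Myelin and oligodendrocyte markers had 3 of 17 higher and 0 lower (median 0.069). Their summed level was 6603 CPM in CAST/EiJ female 1 and at most 3877 in the other libraries of its strain, and without it 5 were higher, with a median of 0.18. Among them, the transcription factor Sox10 was higher by 0.39 log2. In the high-fat, high-sugar libraries 14 of these 17 were higher, beside 22.1% of all tested genes. Blood markers had 2 of 10 higher and 1 lower. On the high-fat, high-sugar diet 9 were higher and 0 lower, beside 22.1% and 21% of all tested genes. On the control diet Hba-a1 was higher and Hba-a2 lower, and the counts of this pair of alpha-globin genes were not whole in all 12 libraries.

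Choroid plexus markers had 5 of 14 higher and 3 lower, and 3 and 2 without CAST/EiJ female 1. The share called was 57.14% with all 12 libraries, beside 42.9% of all genes. Clic6 was higher at 27.9 to 33.5 against 11 to 15.9 CPM, while Tmem72 (-0.80 log2, counts not whole in all 12 libraries) and F5 (-1.26 log2) were lower. Among markers of neighbouring regions, the thalamus list had 2 lower and 0 higher of 14, cortex and hippocampus 2 higher and 1 lower of 14, and striatum 4 higher and 1 lower of 14. Their shares called were 14.29%, 21.43% and 35.71%, below the 42.9% of all genes. With CAST/EiJ female 1 left out, 1 thalamus marker was lower and 1 cortex and hippocampus marker was higher.

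The genes with the smallest p were mostly large differences between non-overlapping groups. Fam213b, a thioredoxin-like prostamide synthase (chr4:154895504-154899135), was 37.3, 41.6 and 42.9 CPM in NZO/HlLtJ and 39.8 to 44.5 CPM in C57BL/6J, but had at most 3 counts in any CAST/EiJ library. Pon2, an intracellular paraoxonase (chr6:5264147-5298455), was 28.6, 33.1 and 34.9 CPM against 1.77, 2.24 and 3.42 CPM (3.77 ± 0.11 log2, adjusted p 1.1e-22), with C57BL/6J at 42 to 46.8 CPM. Mttp, which loads lipid onto apolipoprotein B, was 34.4 to 39.5 against 11.2 to 12.8 CPM (1.66 ± 0.05 log2, adjusted p 3.1e-21). The kinase Hipk4 was 18.2 to 21.8 against 0.585 to 1.87 CPM, and the zinc finger gene Zfp949 68 to 79.5 against 23.4 to 27.1 CPM, where C57BL/6J, at 21.7 to 25.1 CPM, was near CAST/EiJ.

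Among the lower genes, Retsat, which saturates all-trans-retinol (chr6:72598475-72608425), was 13.4, 15.7 and 16.1 CPM in the NZO/HlLtJ libraries and 100, 106 and 162 in those of CAST/EiJ (-2.92 ± 0.08 log2, adjusted p 1.4e-23). Its counts were not whole in 11 of the 12 libraries. C57BL/6J was at 13.3 to 15.7 CPM, within the NZO/HlLtJ range or next to it. Fggy, a carbohydrate kinase (chr4:95557507-95926939), was 1.3, 1.55 and 1.9 CPM against 14.3, 15.2 and 16.3 CPM (-3.27 ± 0.08 log2, adjusted p 4.4e-24), and here C57BL/6J, at 13.1 to 15.4 CPM, was near CAST/EiJ. Tceanc2 (1.95 to 3.12 against 16.2 to 20.8 CPM) had C57BL/6J near CAST/EiJ as well. Madd, a guanine nucleotide exchange factor for Rab proteins, was 22.8 to 25.5 against 58.5 to 80 CPM. Tuba1c was 0.868 to 2.49 against 93.1 to 150 CPM, with counts not whole in all 12 libraries.

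Some genes were near 0 in 1 strain. At most 3 counts in each library of one strain and at least 50 in each of the other were found for 7 genes present in NZO/HlLtJ and 10 present in CAST/EiJ. Of those with an assigned symbol, Fam213b, Cideb and Hist2h2aa2 were present in NZO/HlLtJ, and Tspan10, Pgpep1l and Rps15-ps2 in CAST/EiJ. Counts were not whole in 11 of the 12 libraries for Cideb, in 9 for Hist2h2aa2 and in 5 for Rps15-ps2. For Fam213b, Tspan10 and Pgpep1l they were not whole in 0. Cideb, a lipid droplet protein, was 1.44 to 2.88 CPM in NZO/HlLtJ and 2.19 to 2.83 CPM in C57BL/6J. Tspan10, a tetraspanin, was 7.34 to 9.21 CPM in CAST/EiJ and 0 to 0.125 CPM in C57BL/6J.

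By gene class, 43.29% of 16023 protein-coding genes were called, 43.02% of 430 processed pseudogenes and 43.17% of 2087 long noncoding genes. Differences past 1 log2 were 3.957% of protein-coding genes, 21.4% of processed pseudogenes and 13.85% of long noncoding genes. Long noncoding genes were called higher in NZO/HlLtJ 613 times and lower 288 times. Gm-numbered gene models had 785 higher and 431 lower of 2903, and Zfp genes 84 higher and 54 lower of 364. The share called ran from 39.25% to 47.95% over the autosomes and was 31.02% for the X chromosome.

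Within females 6899 genes were called (34.4%), 3231 higher and 3668 lower, and within males 4912 (24.5%), 2601 higher and 2311 lower, each with 3 libraries against 3. The test of whether the strain difference itself differed between the sexes called 0 genes by edgeR's quasi-likelihood test, with 1775 at an unadjusted p under 0.05; DESeq2 called 10 and limma 0. Without CAST/EiJ female 2 this test called 969 genes, without NZO/HlLtJ female 3 it called 3 and without NZO/HlLtJ male 1 it called 1. Ifit3b was 3.23 log2 in females and 2.99 log2 in males, and Stat3 0.45 and 0.54 log2. Npy was -2.01 log2 in females (adjusted p 1.2e-05) and -0.59 log2 in males (adjusted p 0.18), with CAST/EiJ female 1 among the females.

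In the libraries of the high-fat, high-sugar diet the strains differed in 8646 of 20053 genes (43.1%, with 22.1% higher and 21% lower in NZO/HlLtJ). Of these, 5711 were called in the same direction on the control diet, 66.32% of the control-diet calls and 66.05% of the high-fat calls, and 52 were called in opposite directions. Interferon-stimulated genes, antigen presentation and reactive gliosis genes had medians of 0.87, 0.59 and 0.69 log2 on the control diet and 1.24, 0.90 and 1.27 log2 on the high-fat, high-sugar diet. Orexigenic peptides had -0.61 and -0.20 log2.

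**Figure D5:**
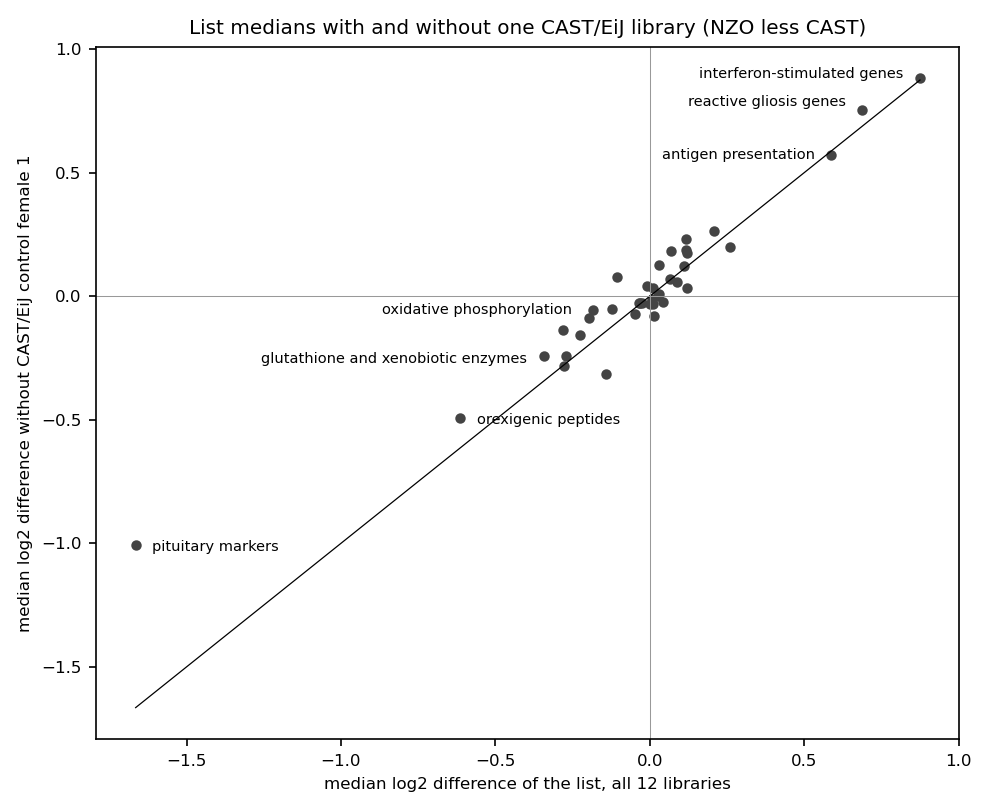
Median log2 difference of each of the 39 gene lists with all 12 libraries (horizontal axis) and without CAST/EiJ female 1 (vertical axis), with the line of equal values. The interferon-stimulated genes lie near the line at 0.87 and 0.88, and the pituitary markers move furthest, from -1.67 to -1.01.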

How the data were processed

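Polyadenylated RNA from hypothalamus was sequenced on an Illumina instrument as read pairs, per the labels' protocols. The authors deposited expected counts per gene and a table of log2-scale variance-stabilised values; per the submitters' processing notes, the build was GRCm38 and DESeq2 was among the tools. For the aligner and the counter: not given in the sources used here. A test on whole counts had been planned, and because 21.368% of the deposited expected counts were not whole (tolerance 1e-06), they were rounded, which moved library totals by at most 0.000186%. No gene of the table had a value above 0 in fewer than 19 of 36 libraries, so rarer genes are not analysed here.

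Genes were kept by edgeR's expression filter by group, scaled by TMM, and tested with the quasi-likelihood test in edgeR 4.0.16 (R 4.3.3) on 12 group means over all 36 libraries with 24 residual degrees of freedom. P-values were adjusted by Benjamini-Hochberg over all tested genes and called under 0.05. DESeq2 1.42.0 and limma 3.58.1, the latter on the deposited log2-scale values, were alternatives. The common biological coefficient of variation was 12.12%. Gene types and lengths came from GENCODE M21 and promoters from RefSeq. The procedure was tested on simulated data. No library was a duplicate: replicate pairs differed beyond sampling noise, with chi-square per degree of freedom of at least 6.77.

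Named genes were, for higher and lower calls separately, the 8 of smallest p (assigned symbol, protein-coding where typed, mean of at least 1 CPM), genes with at most 3 counts in 1 strain and at least 50 in the other, and up to 4 called members with the smallest p in each of 39 lists. Other members were picked after their values were seen. 1 interferon-stimulated gene is counted in its list and not reported here on its own. The comparison and the lists were chosen with earlier results of these data known.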

Additional observations from a re-analysis of the deposited data

Results flagged for a closer look

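In each strain, the levels of every gene named by the rule were checked for a library whose gap to the nearest of the other 5 exceeded Dixon's critical share of the range over all 6, on log2 of CPM plus 1. This gave 45 cases in 308 checks, and chance gives about 1 in 20. In 32 of the 45 the library was CAST/EiJ female 1, the one with the highest sum of pituitary markers.

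It was the highest of its strain for feeding, hormone and granin genes, namely Apln (38.99 CPM, others 26.97 to 29.32), Npy (80.08 CPM, others 20.88 to 34.72), Nucb2 (35.33 CPM, others 25.74 to 28.63), Nms (8.285 CPM, others 1.876 to 2.518), Foxo1 (64.65 CPM, others 43.44 to 50.19) and Scg2 (1844 CPM, others 1043 to 1211). Among metal-binding, retinoid and detoxifying genes it was highest for Retsat (162.3 CPM, others 100.5 to 118.3), Mt2 (185.9 CPM, others 66.4 to 95.03), Mt1 (209 CPM, others 88.76 to 114.8), Glo1 (270.9 CPM, others 196 to 211.4) and Cbr1 (48.2 CPM, others 31.81 to 36.81). Among glial and complement genes it was highest for C3 (142.6 CPM, others 28.72 to 42.54), S100b (255.9 CPM, others 118.7 to 154.9), Gfap (742.6 CPM, others 193.7 to 278.6) and Fcrls (24.27 CPM, others 14.31 to 16.32). Among tanycyte and ependymal genes it was highest for Rarres2 (67.33 CPM, others 23.7 to 26.87), Tmem212 (21.25 CPM, others 4.389 to 5.765) and Foxj1 (73.67 CPM, others 25.58 to 34.22). Among ribosomal, respiratory and histone genes it was highest for Rpl17 (432.9 CPM, others 233.4 to 278.9), Hist2h2aa2 (0.0924 CPM, others 0 to 0.028), Rps15-ps2 (30.34 CPM, others 6.314 to 10.3), Cox7a2 (134 CPM, others 90.59 to 94.63), Rpl27 (133.9 CPM, others 73.13 to 87.12) and Rpl7 (287.7 CPM, others 191.9 to 223.4). Among a pituitary and a thalamic marker it was highest for Gnrhr (10.5 CPM, others 0.3639 to 1.624) and Rgs16 (89.04 CPM, others 33.93 to 40.4). It was the lowest for the vascular genes Slco1a4 (10.56 CPM, others 27.07 to 32.77), Tie1 (7.3 CPM, others 12.25 to 13.97), Rgs5 (16.45 CPM, others 46.85 to 52.52) and for Gabbr1 (775 CPM, others 853.5 to 903.2), Pdgfra (66.25 CPM, others 80.43 to 85.39), Camk2a (244.7 CPM, others 387.2 to 449.6). The part of tissue makeup or RNA length in these values was not tested; its pituitary markers summed to 2728 CPM.

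CAST/EiJ female 2 was the highest of its strain for F5 (5.698 CPM, others 2.587 to 3.471) and the lowest of its strain for Tac1 (36.52 CPM, others 44.36 to 46.84). CAST/EiJ female 3 was the highest of its strain for Iigp1 (0.08399 CPM, others 0 to 0). CAST/EiJ male 1 was the lowest of its strain for Hspa1a (13.12 CPM, others 24.86 to 35.41). NZO/HlLtJ female 1 was the lowest of its strain for Bdnf (17.98 CPM, others 22.3 to 23.85), Nmb (1.143 CPM, others 1.709 to 2.108) and Gstm6 (5.52 CPM, others 6.376 to 6.917). NZO/HlLtJ female 2 was the highest of its strain for Gabra4 (47.25 CPM, others 29.85 to 33.89). NZO/HlLtJ female 3 was the highest of its strain for Rpl9-ps6 (270 CPM, others 232.5 to 242.9), Pdia3 (307.1 CPM, others 240.5 to 255.4) and Rpl7 (137.7 CPM, others 112.7 to 120.9). NZO/HlLtJ male 1 was the lowest of its strain for Cd59a (14.37 CPM, others 15.58 to 16.36). NZO/HlLtJ male 2 was the lowest of its strain for Fam213b (37.33 CPM, others 41.03 to 42.88).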

How the results depend on the processing

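The count of genes differing between the strains was 8611 and lay within 1.5 times of that under other settings: 8586 with DESeq2's size factors, 8723 with DESeq2, 8627 with limma, 8718 with no filter, 7008 with a strict filter of at least 1 CPM in 6 libraries, 6356 fitted on the 12 libraries alone, 8450 with an additive sex term, 8607 with pituitary markers left out, and 7311 without CAST/EiJ females 1 and 3. Leaving out single libraries gave 7874 to 9440. A minimum difference of 1 log2 left 1198. In females the count was 6899, from 5267 to 8195 with 1 library left out, 3468 without CAST/EiJ females 1 and 3, and 4189 on the 12 libraries alone. In males it was 4912, from 4006 to 5702, and 3166 on the 12 libraries alone. The interaction with sex called 0 genes, 10 with DESeq2, 2 without CAST/EiJ females 1 and 3, and 0 to 969 with 1 library left out; the cause was not tested. Over the 178 genes named, 3662 of 3906 alternative values kept their direction and their side of the threshold, 239 lost the call, 1 gained it and 4 changed sign. Those 4 were genes that were not called: Pomc at 0.0933 log2 without CAST/EiJ female 1 and 0.0809 without females 1 and 3, and Tmem119 at 0.0794 and 0.0687. With 1 library left out, Pomc ran from -0.3295 to 0.0933 and Tmem119 from -0.1148 to 0.0794. Leaving out CAST/EiJ female 1 ended the call of 7 genes, namely Gal, Prlr, Gabrg3, Pdia3, Pdgfra, Rgs16 and Camk2a. No paired analysis was possible because the library numbers in the labels are unique and tie no sample of one strain to a sample of the other. With 6 libraries a strain, genes of a few counts have wide errors.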
